A study of Mus musculus with 6 samples.

Results

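The genes described here are 9 enzymes of the glutathione system: the cytosolic glutathione transferases *Gstm1*, *Gstp1*, *Gsto1* and *Gstt1*, the membrane-bound transferases *Mgst1* and *Mgst2*, the glutathione peroxidases *Gpx1* and *Gpx4*, and the glutathione reductase *Gsr*. Every tested probe that was named for one of them and had a log2 value deposited by the authors was taken. This gave 13 probes for 8 of the 9 genes, of 22119 probes and 10528 named genes tested in all. No tested probe carried the name *Gsr*, and that gene was not analysed here. Of the tested probes, 16494 carried 1 gene name, so a probe of these genes without a name could have been missed. The members were chosen by name and function and not by a cut on their values, but with earlier results of these data known.

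Gene expression was profiled in LSK cells, the lineage-negative, Sca-1+ and c-Kit+ bone marrow fraction that holds hematopoietic stem cells and multipotent progenitors. Wild-type LSK cells (Spi1+/+ MxCre+, 3 pools) were set against PU.1-deficient LSK cells (Spi1fl/fl MxCre+, 3 pools), with each pool taken from several C57BL/6 mice of 6 to 12 weeks of age and each hybridized to 1 Illumina array. Both genotypes carried MxCre, a recombinase driven by an interferon-inducible promoter that is not restricted to LSK cells, and both were injected with polyIC (5 µg/g, 2 injections, 3 days apart), so polyIC exposure and Cre did not differ by design. Levels are given as background-corrected, normalized log2 intensity, a probe was detected where its detection p-value was under 0.05, and genotypes were compared with the moderated statistics in *limma*, where a p adjusted over all 22119 probes of under 0.05 passed. The study's methods give day 14 for the isolation of these cells, while the labels list later days too, and the mice of the PU.1-deficient pools lose exon 5 of *Spi1* wherever the recombinase acted. *Spi1*, which encodes PU.1, was lower in PU.1-deficient LSK cells (log2 fold change -2.44, adjusted p = 0.00112 from *limma*), and its probe was still detected in 3 of 3 of these pools.

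Glutathione is the main small thiol of the cell. Glutathione transferases couple it to reactive electrophiles, glutathione peroxidases use it to reduce hydrogen peroxide and lipid peroxides, and glutathione reductase returns the oxidized form to the reduced form at the expense of NADPH. In blood cells the system is best known for keeping red cells and phagocytes intact while they handle oxygen and the oxidants of the respiratory burst, and hematopoietic stem cells are known for a low content of reactive oxygen species.

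Relative to wild-type LSK cells, PU.1-deficient LSK cells showed higher levels of *Mgst2* (21.6-fold), *Gstm1* (11.3-fold on the brighter of its probes) and *Mgst1* (4.92-fold), and lower levels of *Gpx1* (2.29-fold) and *Gstt1* (2.47-fold). *Gstp1*, *Gsto1* and *Gpx4* did not pass the test. By probe, 4 of the 13 were higher and 2 were lower, while 4.89% of all tested probes were higher and 3.91% were lower. By gene, 3 of 8 were higher and 2 of 8 lower, beside 6.61% and 5.59% of all genes. The 3 pools of each genotype did not overlap for 8 of the 13 probes, beside 28.0% of all tested probes. The median log2 fold change was 0.34 over the 13 probes and -0.05 over all tested probes. In bulk samples, fewer cells of a kind and less RNA per cell cannot be told apart.

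**Figure D1:**
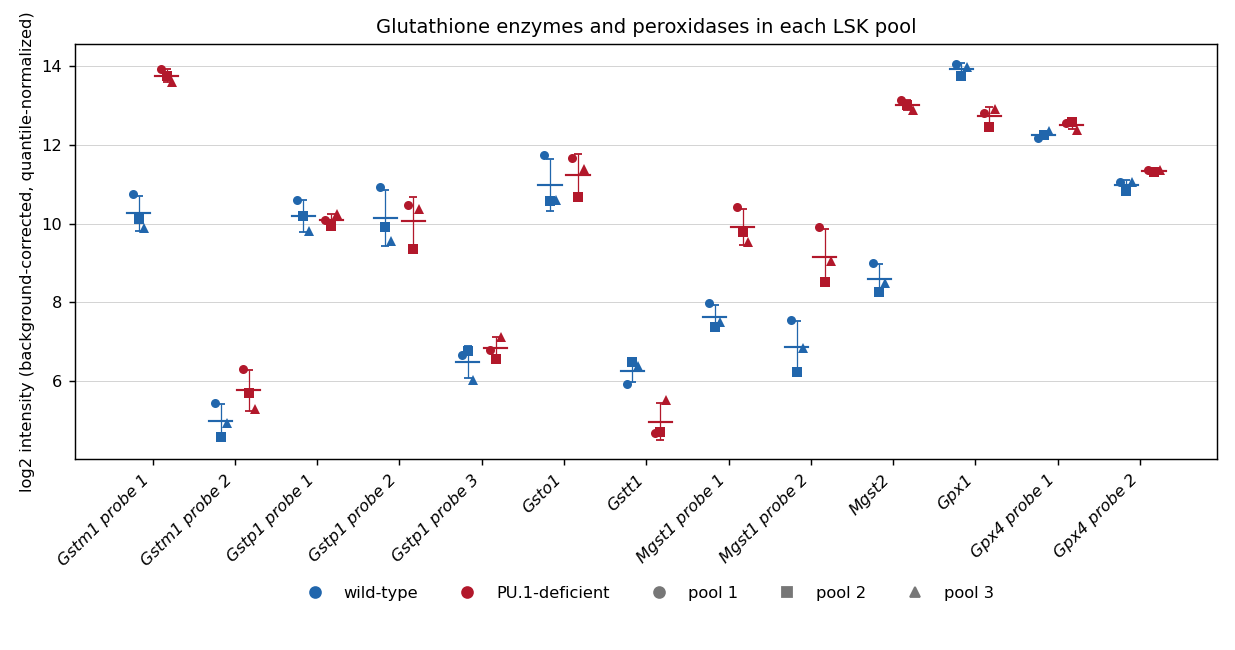
Normalized log2 intensity (vertical axis) of each of the 13 probes (horizontal axis) in each LSK pool. Symbols are pools 1 to 3, short lines are means and bars are SD over 3 pools, blue for wild-type and red for PU.1-deficient. The pools of the genotypes lie furthest apart for *Mgst2* (8.27 to 9.01 against 12.89 to 13.15) and *Gstm1* probe 1 (9.89 to 10.77 against 13.59 to 13.92). Heights of different probes are not comparable.

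The promoters of the 3 members that rose are shown here because these genes rose in the same comparison. Each runs from 250 bases before to 50 bases after a transcription start of RefSeq (GRCm38.p6), in the direction of the gene, and *Gstm1* and *Mgst1* each have a second listed start that is not shown. They were searched on both strands for GAGGAA, a core of PU.1 sites, for TTGCNNAA, a C/EBP consensus, and for TGACNNNGC, the core of the antioxidant response element. Capitals mark matches.
*Mgst2* (chr3:51660929-51661228, plus strand): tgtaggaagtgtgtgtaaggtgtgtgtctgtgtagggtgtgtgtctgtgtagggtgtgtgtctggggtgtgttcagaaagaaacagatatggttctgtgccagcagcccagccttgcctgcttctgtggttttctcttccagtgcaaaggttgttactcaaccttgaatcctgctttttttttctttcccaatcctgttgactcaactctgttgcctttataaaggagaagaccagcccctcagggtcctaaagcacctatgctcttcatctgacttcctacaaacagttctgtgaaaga
*Gstm1* (chr3:108017924-108018223, minus strand): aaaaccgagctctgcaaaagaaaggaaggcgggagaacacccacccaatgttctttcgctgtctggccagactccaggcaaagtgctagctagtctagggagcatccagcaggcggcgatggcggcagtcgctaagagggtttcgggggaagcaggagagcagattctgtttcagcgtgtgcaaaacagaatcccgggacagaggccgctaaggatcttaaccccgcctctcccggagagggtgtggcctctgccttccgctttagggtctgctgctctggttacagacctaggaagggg
*Mgst1* (chr6:138140277-138140576, plus strand): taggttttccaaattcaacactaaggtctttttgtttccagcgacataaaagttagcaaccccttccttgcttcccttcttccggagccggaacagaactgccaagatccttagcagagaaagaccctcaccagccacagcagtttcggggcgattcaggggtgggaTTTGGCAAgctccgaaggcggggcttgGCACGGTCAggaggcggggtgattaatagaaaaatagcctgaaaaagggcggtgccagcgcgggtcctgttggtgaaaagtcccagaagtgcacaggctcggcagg
The *Mgst1* sequence held 1 match to the C/EBP consensus and 1 to the antioxidant response element core, which did not overlap. These letters were not found in the windows of *Mgst2* and *Gstm1*. The *Mgst2* window lies inside the span listed for the gene, which begins at 51636912, and the sequence around that end was not searched. Of 32851 promoters of the same length, 28.3% held the PU.1 core, 10.8% the C/EBP consensus and 12.4% the antioxidant response element core. Over the 13 promoters listed for the 8 genes, the PU.1 core was in 2 (*Gsto1* and the other start of *Mgst1*), the C/EBP consensus in 2 (*Mgst1* and *Gstt1*) and the antioxidant response element core in 1. A match is a description of the letters and not a binding site.

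*Mgst2* encodes a microsomal glutathione transferase that also joins glutathione to leukotriene A4. The gene lies on chromosome 3 (GRCm38.p6, 51636912 to 51682675), and 1 tested probe was named for it. Its normalized log2 intensity was 13.15, 13.01 and 12.89 in PU.1-deficient pools 1 to 3 and 9.01, 8.27 and 8.48 in wild-type pools 1 to 3. The PU.1-deficient pools were all far above the wild-type pools. The intensities deposited by the authors, not normalized, were 9957, 5482 and 8795 against 716, 504 and 360. The log2 fold change was 4.43 (standard error, SE, 0.23, *limma* adjusted p = 8.9e-05), and it stayed between 4.16 and 4.66 under all alternatives tried.

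*Gstm1* encodes a mu-class cytosolic transferase. The gene lies in the mu-class cluster on chromosome 3 (108012250 to 108017973), and had 2 probes. Probe 1 gave 13.92, 13.76 and 13.59 in the PU.1-deficient pools and 10.77, 10.12 and 9.89 in the wild-type pools. Its mean rose from 10.26 ± 0.45 to 13.76 ± 0.17 (SD, n = 3), a log2 fold change of 3.50 (SE 0.25, *limma* adjusted p = 0.000312), larger than the spread between pools. Probe 2 was dim, with 6.30, 5.70 and 5.28 against 5.43, 4.57 and 4.93, with signal above background in 3 of 3 PU.1-deficient but only 1 of 3 wild-type pools. The groups overlapped on probe 2, and its log2 fold change of 0.78 did not pass (adjusted p = 0.217, 95% confidence interval 0.03 to 1.53). The mean of both probes had a log2 fold change of 2.14 (adjusted p = 0.00158). Which exons or transcripts the probes match was not checked here, and mu-class genes are close in sequence, so the signal of a probe may in part come from a neighbour.

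The mu-class neighbours were examined gene by gene, a selection made after the values were seen. In RefSeq the cluster runs in the order *Gstm5*, *Gstm7*, *Gstm6*, *Gstm3*, *Gstm2*, *Gstm1* and *Gstm4* over 149 kb. For 6 of the 7 genes a tested probe carried the name. With *Gstm1*, 4 of the 6 were higher, beside 6.61% of all tested genes. Because a probe may take signal from a neighbour, these may not be 4 separate changes. *Gstm6* had a mean of 8.67 ± 0.63 in the PU.1-deficient and 5.88 ± 0.84 in the wild-type pools (SD, n = 3, log2 fold change 2.79, adjusted p = 0.0104). *Gstm4* had a log2 fold change of 1.62 (adjusted p = 0.00366), and *Gstm2* of 1.42 (adjusted p = 0.00773), with 1.42 to 1.52 over its 3 probes, all past the threshold. *Gstm5*, at the far end, had a log2 fold change of -0.75 that did not pass (adjusted p = 0.116), although its pools did not overlap. *Gstm7* was near background, with a log2 fold change of 0.001 (adjusted p = 0.999).

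*Mgst1* encodes the microsomal transferase of liver and other tissues, which also reduces lipid peroxides. The gene lies on chromosome 6 (138140527 to 138156755) and had 2 probes. Probe 1 read 10.42, 9.78 and 9.54 in the PU.1-deficient pools and 7.98, 7.37 and 7.50 in the wild-type pools, a log2 fold change of 2.30 (SE 0.28, *limma* adjusted p = 0.00281). Probe 2 read 9.91, 8.51 and 9.04 against 7.55, 6.22 and 6.85, a log2 fold change of 2.28 (SE 0.44, adjusted p = 0.0179). On both probes pool 1 was the highest of its genotype, and the groups did not overlap. The call of probe 1 held under all alternatives tried. That of probe 2 was lost on leaving out PU.1-deficient pool 3 (adjusted p = 0.0623), wild-type pool 2 (0.0635) or wild-type pool 3 (0.0759), with no filter on dim probes (0.0626) and with arrays scaled to equal medians of all probes (0.0582).

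*Gpx1*, the most widespread glutathione peroxidase and a selenoprotein of the cytosol, lies on chromosome 9 (108339080 to 108340342) and had 1 probe. It read 12.81, 12.46 and 12.92 in the PU.1-deficient pools and 14.06, 13.75 and 13.98 in the wild-type pools. All PU.1-deficient pools were below all wild-type pools. The deposited intensities were 7905, 3954 and 8904 against 20881, 16475 and 12497. The mean fell from 13.93 ± 0.16 to 12.73 ± 0.24 (SD, n = 3), a log2 fold change of -1.20 (SE 0.19, *limma* adjusted p = 0.00922). Without wild-type pool 3 the adjusted p was 0.0567, and the fold change -1.17.

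*Gstt1*, a theta-class transferase, lies on chromosome 10 (75783813 to 75798584) beside other theta-class genes and had 1 dim probe. It read 4.68, 4.69 and 5.50 in the PU.1-deficient pools and 5.93, 6.49 and 6.38 in the wild-type pools, and was detected in 1 of 3 and 3 of 3 pools, respectively. The groups did not overlap, and the log2 fold change was -1.31 (SE 0.28, *limma* adjusted p = 0.0287). The size rested in part on background, and was -0.51 with no background correction and -0.76 with an offset of 50. The call was lost on leaving out PU.1-deficient pool 1 (adjusted p = 0.109) or pool 2 (0.0722), wild-type pool 2 (0.12) or pool 3 (0.121), with no filter on dim probes (0.0662) and with scaling to equal medians of the tested probes (0.073).

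The other peroxidase, *Gpx4*, reduces phospholipid hydroperoxides within membranes and is known as the enzyme that restrains ferroptosis. It lies on chromosome 10 (80047166 to 80056439). Its probe 1 read 12.56, 12.57 and 12.39 in the PU.1-deficient pools and 12.17, 12.25 and 12.36 in the wild-type pools. Probe 2 read 11.36, 11.30 and 11.37 against 11.05, 10.83 and 11.06. The PU.1-deficient pools were above the wild-type pools on both probes, by less than the test could call. The log2 fold change was 0.25 on probe 1 (95% confidence interval -0.13 to 0.63, adjusted p = 0.465) and 0.37 on probe 2 (-0.01 to 0.75, adjusted p = 0.254, from *limma*).

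*Gstp1*, the pi-class transferase, and *Gsto1*, an omega-class enzyme that also reduces dehydroascorbate, lie on chromosome 19 (4035411 to 4037912 and 47854973 to 47864790). *Gstp1* probe 1 read 10.09, 9.95 and 10.25 in the PU.1-deficient pools and 10.60, 10.18 and 9.80 in the wild-type pools. Probe 2 read 10.46, 9.35 and 10.37 against 10.93, 9.93 and 9.55, and probe 3 read 6.79, 6.56 and 7.12 against 6.66, 6.77 and 6.02. The groups overlapped on all 3 probes. Their log2 fold changes were -0.10 (95% confidence interval -0.65 to 0.45), -0.07 (-1.07 to 0.92) and 0.34 (-0.26 to 0.94), with adjusted p of 0.873, 0.956 and 0.534 from *limma*, and differences of these sizes in either direction were not detectable with 3 pools. *Gsto1* read 11.67, 10.67 and 11.40 against 11.75, 10.58 and 10.61, a log2 fold change of 0.27 (-0.64 to 1.17, adjusted p = 0.777).

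**Figure D2:**
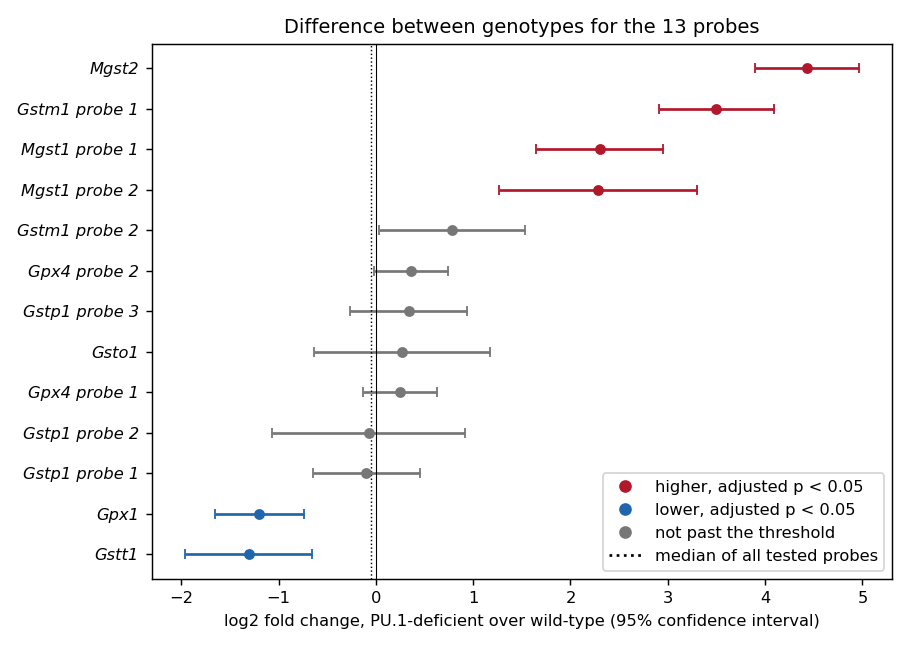
Log2 fold change, PU.1-deficient over wild-type (horizontal axis), of each of the 13 probes with its 95% confidence interval from *limma*. Red and blue points are past the adjusted p threshold and gray points are not, and the dotted line is the median of all tested probes (-0.05). The 4 red points lie between 2.28 and 4.43 and the 2 blue points at -1.20 and -1.31.

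The pools of a genotype also differed among themselves. Wild-type pool 1 was the highest wild-type pool on 9 of the 13 probes, and PU.1-deficient pool 2 was the lowest of its genotype on 7. Equally, PU.1-deficient pool 1 was the highest of its genotype on 7, and wild-type pool 2 was the lowest wild-type pool on 7. The SD over wild-type pools ran from 0.09 for *Gpx4* to 0.71 for *Gstp1*, and that over PU.1-deficient pools from 0.04 for *Gpx4* to 0.71 for *Mgst1*. With both of these pools left out, an alternative added after the data were seen, 6 member probes were higher and 2 lower. Calls rose over all tested probes too under this setting, to 2837 higher and 2878 lower, from 1081 and 864 in the main fit. The 6 called probes kept their calls there, *Gsto1* passed as well (log2 fold change 0.94, adjusted p = 0.0129), and *Gstp1* probe 2 passed with its sign turned (0.67, adjusted p = 0.0477). Leaving out an often highest wild-type pool and an often lowest PU.1-deficient pool raises most of these differences by construction. The new passes are therefore no separate evidence of a rise.

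Over all probes, 1081 were higher and 864 lower in PU.1-deficient LSK cells. The split moved with the scaling of the arrays. With equal medians of the tested probes it was 937 higher and 515 lower, with a median log2 fold change of 0.11, and with equal medians of all probes it was 526 higher and 893 lower, with a median of -0.21. Set against shifts of that size, *Mgst2* (4.60 and 4.29), *Gstm1* probe 1 (3.68 and 3.36), *Mgst1* probe 1 (2.35 and 2.04) and *Gpx1* (-0.92 and -1.24) kept their direction and their call. Per array, the median intensity was 89.5 to 116.5 and 15639 to 18174 probes were detected. *Xist*, which is transcribed from the silenced X chromosome of females, read 9.93, 10.01 and 11.06 in the PU.1-deficient pools. In the wild-type pools it read 4.48, 4.48 and 5.18 (log2 fold change 5.62, *limma* adjusted p = 0.000157). It had signal above background in 3 of 3 PU.1-deficient but only 1 of 3 wild-type pools, where it was dim. The sex of the pooled mice and the genotype therefore cannot be told apart.

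**Figure D3:**
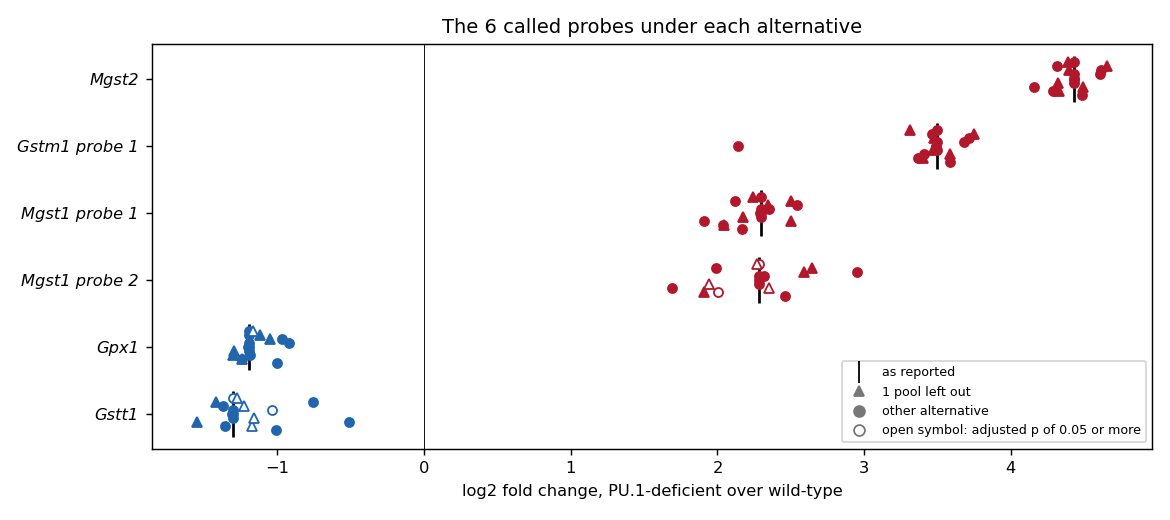
Log2 fold change, PU.1-deficient over wild-type (horizontal axis), of the 6 called probes as reported (black bars) and under each alternative (triangles with 1 pool left out, circles for the others). Open symbols have an adjusted p of 0.05 or more. No alternative moves any of the 6 across 0, and open symbols occur for *Mgst1* probe 2, *Gpx1* and *Gstt1*. The lone circle of *Gstm1* at 2.14 is the mean of its 2 probes.

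Markers of other blood cells differed between the genotypes beside these members. Their counts are to be read beside the shares over all genes, 6.61% higher and 5.59% lower. Of 10 tested markers of later neutrophils, 7 were higher and none was lower in PU.1-deficient LSK cells. Their summed level was 16.17 to 16.43 on the log2 scale, against 12.98 to 13.40 in wild-type pools. Of 5 promyelocyte markers, 3 were higher (summed level 16.34 to 16.43 against 14.68 to 15.69). Of 7 erythroid markers, 6 were lower (10.27 to 10.58 against 11.55 to 12.94), and of 5 megakaryocyte markers, 5 were lower (9.63 to 10.40 against 12.52 to 12.62). Of 8 tested stem cell and LSK markers, 4 were lower. *Kit*, part of the sorting gate, was detected on all 6 arrays, and no tested probe carried the name of *Ly6a*, which encodes Sca-1. Of 6 mast cell and basophil markers, 2 were higher (12.72 to 13.07 against 10.77 to 11.79). Of 5 monocyte and macrophage markers, 1 was higher and 2 were lower (summed level 11.75 to 12.14 against 11.36 to 11.59), and none of 4 eosinophil markers passed (11.44 to 11.55 against 10.88 to 11.22). Of 4 B cell markers, 1 was higher and 1 lower (8.49 to 9.17 against 9.13 to 9.51), and of 3 T and NK cell markers, 1 was higher (13.35 to 13.62 against 11.55 to 11.96). A summed level is set mostly by the brightest probes of a list and need not follow its other markers. The monocyte and macrophage sum was higher with a median log2 fold change of -0.96, and the T and NK cell sum with a median of -0.14. In the neutrophil, promyelocyte, erythroid and megakaryocyte lists, each tested marker was detected in at least 1 pool of each genotype. The part that these cells or genes had in the rise of *Mgst2*, *Gstm1* and *Mgst1* and in the fall of *Gpx1* and *Gstt1* was not tested.

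**Figure D4:**
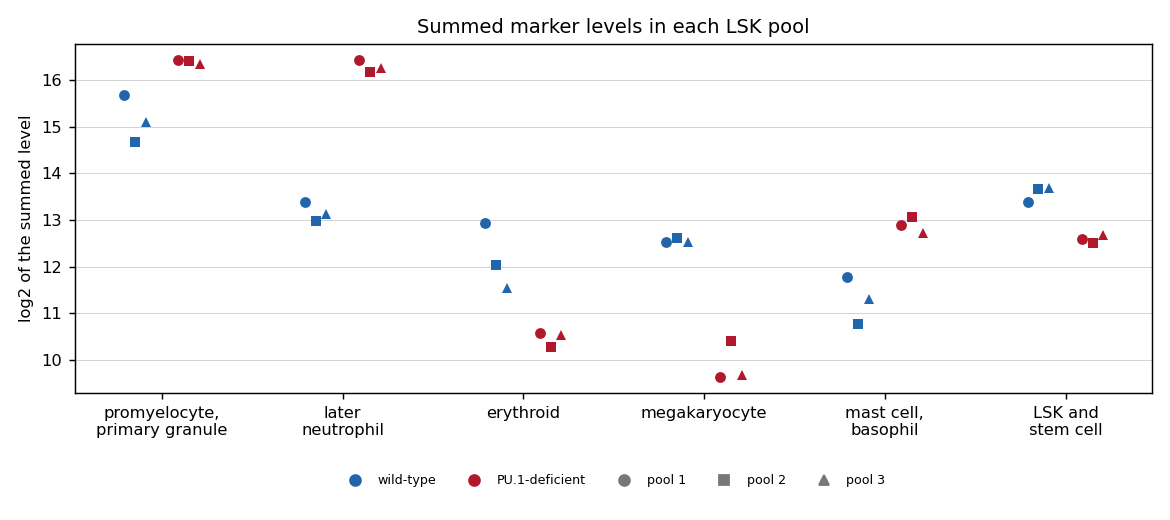
Log2 of the summed normalized level of each marker list (vertical axis) in each LSK pool, blue for wild-type and red for PU.1-deficient, with symbols for pools 1 to 3. The later neutrophil list sits at 16.17 to 16.43 in PU.1-deficient and 12.98 to 13.40 in wild-type pools, and the megakaryocyte list at 9.63 to 10.40 and 12.52 to 12.62.

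The genes whose profile over the 6 pools was most like that of each called member were ranked by root mean square log2 difference, after each probe was set relative to its own wild-type mean, among 11591 probes. For *Mgst2* they were *Mcemp1*, a membrane protein of mast cells and other myeloid cells (0.16), *Camp*, the cathelicidin of neutrophil granules (0.20), and *Rgcc*, a cell cycle regulator (0.30). For *Gstm1* they were *Slc40a1*, the iron exporter ferroportin (0.12), *Fcnb*, a ficolin (0.16), and *Aoah*, which inactivates bacterial lipopolysaccharide (0.16). For *Mgst1* they were *Tmed3* (0.18), *Emilin2*, an extracellular matrix glycoprotein (0.19), and the DNA damage sensor *Xpc* (0.21). For *Gpx1* they were *Gbp3*, an interferon-induced GTPase (0.05), *Vamp5* (0.09) and the acyl-CoA synthetase *Acsl3* (0.09), and for *Gstt1* they were *Rai14*, *Ppp1r13b* and *Vsig10* (0.15 to 0.16). This likeness is over 6 pools of 2 genotypes and is carried mostly by the difference between genotypes.

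Genes that act around these enzymes were taken from lists by function, with the brightest probe per gene. The counts below stand beside 6.61% of all tested genes higher and 5.59% lower, and no list was tested against these shares. Of 20 other glutathione transferases and related proteins tested, 4 were higher and none was lower. They were *Gstm6*, *Gstm4* and *Gstm2*, above, and *Gstt2*, a theta-class neighbour of *Gstt1*, which read 8.82, 9.17 and 8.67 in the PU.1-deficient pools and 7.73, 8.10 and 8.16 in the wild-type pools. Its log2 fold change was 0.89 (adjusted p = 0.0417 from *limma*), its other probe gave 0.11 (adjusted p = 0.865), and the call was lost on leaving out any 1 of the 6 pools (adjusted p between 0.0775 and 0.121). The theta-class neighbours *Gstt1* and *Gstt2* had log2 fold changes of opposite sign, on calls that were each lost under several alternatives. *Gstt3*, also beside *Gstt1*, had 0.06 (adjusted p = 0.921). The brightest others, *Eef1g*, an elongation factor subunit with a transferase-like domain, and *Clic1*, an intracellular chloride channel of the same fold, did not pass (-0.51 and 0.23). The median over the 20 genes was 0.13, beside -0.04 over all genes.

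For the other peroxidases, 1 of 12 tested genes was higher and 3 were lower, with a median log2 fold change of -0.32. *Gpx3*, the secreted glutathione peroxidase of plasma, read 6.86, 7.24 and 6.76 in the PU.1-deficient pools and 5.46, 4.75 and 4.70 in the wild-type pools, of which 1 of 3 was detected (log2 fold change 1.98, adjusted p = 0.00366 from *limma*). *Prdx4*, the peroxiredoxin of the endoplasmic reticulum, read 7.96, 8.65 and 9.24 against 11.03, 11.21 and 11.15, a log2 fold change of -2.51 (SE 0.31, adjusted p = 0.00307). Both calls held with each pool left out. The cytosolic peroxiredoxins *Prdx2* (-0.81, adjusted p = 0.0307) and *Prdx1* (-0.69, adjusted p = 0.0484) lost their calls on leaving out any 1 of the 6 pools (adjusted p between 0.0606 and 0.182) and under both scalings to equal medians. *Prdx3*, of mitochondria, had a log2 fold change of -0.27 (adjusted p = 0.836). *Mpo*, the peroxidase of primary granules, did not pass on its brightest probe (0.08, adjusted p = 0.845), and of its 4 probes, which gave 0.08 to 2.25, 1 passed (1.78, adjusted p = 0.0263).

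In the synthesis and breakdown of glutathione, 2 of 11 tested genes were higher and none was lower, with a median of 0.02. *Chac1*, which degrades glutathione and is a target of the integrated stress response, read 6.82, 7.15 and 7.01 in the PU.1-deficient pools and was undetected in all wild-type pools. It was at least 4.04-fold higher (adjusted p = 0.000315 from *limma*), the bound being set by the dimmest detected signal of each wild-type array or by the signal of the probe itself where that was higher. *Gclm*, the modifier subunit of the rate-limiting enzyme of synthesis, read 10.61, 10.45 and 10.51 against 9.98, 9.80 and 9.82 (log2 fold change 0.66, adjusted p = 0.0475), a call that was lost on leaving out any 1 of the 6 pools (adjusted p between 0.0541 and 0.198) and under both scalings. The brightest others were *Slc3a2*, the heavy chain of the cystine importer (-0.04), and *Ggct* (-0.64), neither of which passed.

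Of 16 thioredoxin and glutaredoxin genes, 3 were higher and none lower, with a median of 0.01. *Msrb1* and *Msra* reduce oxidized methionine, and *Glrx* removes glutathione from proteins. *Msrb1* read 11.10, 11.14 and 10.93 in the PU.1-deficient pools and 9.08, 8.16 and 8.50 in the wild-type pools (log2 fold change 2.48, adjusted p = 0.00134 from *limma*). *Glrx* read 13.12, 12.65 and 12.62 against 11.35, 11.21 and 11.11 (1.57, adjusted p = 0.00333), with 1.58 on its other probe. *Msra* had 1.34 (adjusted p = 0.00664) on the brighter and 0.14 (adjusted p = 0.803) on the other probe. Its brighter probe was dim in the wild-type pools, at 4.96, 5.17 and 5.26. The calls of *Msrb1*, *Glrx* and *Msra* held with each pool left out. *Txnip*, the inhibitor of thioredoxin, had -0.95 (adjusted p = 0.0752), and *Txn1*, thioredoxin itself, had 0.31 (adjusted p = 0.381).

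Other selenoproteins and the synthesis genes, the latter supplying the selenocysteine of *Gpx1* and *Gpx4*, had 2 of 16 higher and none lower (median 0.04). This list held neither the members, of which *Gpx1* was lower, nor genes of the other lists, so it is not a count of all selenoproteins. *Selenom* read 8.24, 8.76 and 8.25 in the PU.1-deficient pools and 6.11, 5.95 and 6.24 in the wild-type pools (log2 fold change 2.31, adjusted p = 0.000716 from *limma*). *Selenos* had 1.09 (adjusted p = 0.0165), which ended without PU.1-deficient pool 1 or 3 and without wild-type pool 2 or 3 (adjusted p 0.0683 to 0.09). The bright *Selenoh* (-0.35) and *Selenot* (0.19) did not pass. Both called genes encode proteins of the endoplasmic reticulum and not factors of selenocysteine insertion.

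In NADPH supply, 2 of 13 tested genes were lower and none higher (median 0.14). They were *Mthfd2*, a mitochondrial folate enzyme (-0.93, adjusted p = 0.0234 from *limma*), and *Idh2*, the mitochondrial NADP-dependent isocitrate dehydrogenase (-0.72, adjusted p = 0.043). In the pentose phosphate pathway, *Taldo1* (0.75, adjusted p = 0.0514) and *Tkt* (0.33, adjusted p = 0.458) did not pass. No tested probe carried the name *G6pdx* or *Pgd*, the NADPH-making steps of that pathway, and these genes were not analysed here. Of 20 genes of superoxide dismutation and the NRF2 response, 2 were higher and 1 was lower (median -0.003). *Sod1*, the cytosolic superoxide dismutase, read 11.72, 11.92 and 11.89 in the PU.1-deficient pools and 12.72, 12.70 and 12.83 in the wild-type pools (log2 fold change -0.91, adjusted p = 0.0132). *Abcc4*, an organic anion exporter, had 0.95 (adjusted p = 0.041), and *Hagh*, a hydrolase of glutathione thioesters, had 0.94 (adjusted p = 0.0269). The ferritin chains *Fth1* (-0.29) and *Ftl1* (-0.02) did not pass. The calls of *Idh2* and *Hagh* were lost on leaving out any 1 of the 6 pools (adjusted p between 0.0543 and 0.166), and those of *Mthfd2*, *Sod1* and *Abcc4* without PU.1-deficient pool 1 or 3 and without wild-type pool 2 or 3 (0.054 to 0.175). Scaling to equal medians of the tested probes also ended the calls of *Gstt2*, *Idh2*, *Hagh*, *Mthfd2* and *Sod1*, and scaling to equal medians of all probes those of *Gstt2*, *Idh2*, *Hagh*, *Abcc4* and *Selenos*. The calls of *Gstt2* and *Abcc4* were lost with no filter on dim probes, and those of *Gstt2* and *Prdx1* with the probes of a gene averaged.

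**Figure D5:**
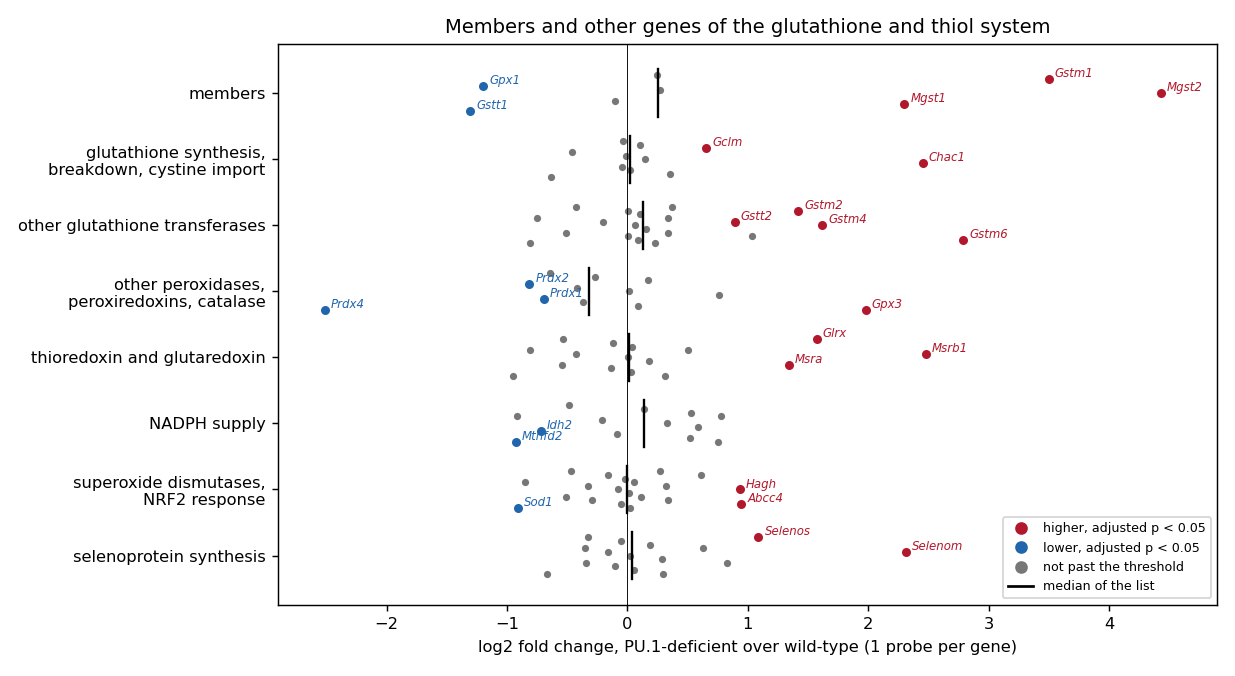
Log2 fold change, PU.1-deficient over wild-type (horizontal axis), of the members and of the genes in 7 functional lists (rows), 1 probe per gene. Red and blue points with names are past the adjusted p threshold, gray points are not, and black bars are list medians, between -0.32 for the other peroxidases and 0.26 for the members. *Prdx4* at -2.51 is the lowest point, and *Mgst2* at 4.43 the highest.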

How the data were processed

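RNA of 3 PU.1-deficient and 3 wild-type LSK pools was hybridized to Illumina MouseWG-6 V2.0 arrays of 45281 probes. The authors deposited the intensity of each probe, not normalized, with a detection p-value, and log2 values of 19750 probes. The authors made these log2 values with the neqc function of *limma* (background correction, quantile normalization), after the methods and the submitters' processing notes. In the intensity table the headings of intensity and detection p-value are exchanged within each pair, which was checked against the log2 values.

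The neqc step was repeated from the intensities with *limma* 3.58.1 in R 4.3.3 (background inferred from the detection p-values, offset 16), and differed from the deposited log2 values by at most 0.0255. The 22119 probes with a detection p-value under 0.05 on at least 1 array entered the fit (lmFit and eBayes, two-sided), with genotype as the only term and Benjamini-Hochberg adjustment over all of them, at a threshold of 0.05. Of these, 16494 carried 1 gene name. The script was tested on simulated data. A probe undetected in a whole group has only a bound. Nothing says that the pools were of separate litters or days, so p-values measure the spread between these pools, and the number of arrays limits the precision.

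Named were all member probes, *Spi1* and *Xist*, from each functional list up to 4 genes with the largest change past the threshold per direction and up to 2 of the brightest others, and the 3 genes most like each called member. *Gstm5*, *Gstm7*, *Gstt3* and the marker genes were named outside this rule or as checks. The members and lists were chosen with earlier results of these data known. The alternatives were scaling to equal medians, no background correction, an offset of 50, a detection p-value of 0.01 or no filter, the deposited log2 values, array weights, a replicate block, averaged probes and leaving out pools.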

Additional observations from a re-analysis of the deposited data

How the results depend on the processing

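Of the 6 called member probes, *Mgst2*, *Gstm1* probe 1 and *Mgst1* probe 1 kept their direction and call under every alternative run, and *Mgst1* probe 2, *Gpx1* and *Gstt1* kept their direction and lost their call under those named with them. Scaling to equal medians of the tested probes gave 515 lower probes and 1 lower member probe, and scaling to equal medians of all probes, added after the data were seen, gave 526 higher probes. No filter on dim probes gave 1 lower member probe. Array weights gave 3189 higher and 4120 lower probes and 7 higher member probes, with *Gsto1* (0.71, adjusted p = 0.0248), *Gstp1* probe 3 (0.69, adjusted p = 0.0359) and *Gpx4* probe 2 (0.40, adjusted p = 0.0323) also past the threshold. With PU.1-deficient pool 2 and wild-type pool 1 left out, 2837 probes were higher and 2878 lower. The causes were not tested.

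With 1 pool left out, 603 to 1005 probes were higher and 306 to 1112 lower, and 3 to 4 member probes were higher and 0 to 2 lower. The count without wild-type pool 3 was the lowest in each direction (603 and 306), followed by that without wild-type pool 2 (652 and 337).

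With the replicate number as a block, 1596 probes were higher and 1681 lower, and *Gstm1* probe 2 passed (adjusted p = 0.0356). The deviations of same-numbered pools correlated at 0.72, 0.61 and -0.15, and those of differently numbered pools at -0.68 to 0.52. These values do not settle whether the numbers pair the samples, and the main fit left the pools unpaired.

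Some values that had not passed turned in sign. *Gstp1* probe 1 was 0.20 with array weights, 0.17 with the 2 pools left out, 0.055 with its probes averaged and -0.30 to 0.10 with 1 pool left out. *Gstp1* probe 2 was 0.53, 0.67 (which passed, adjusted p = 0.0477) and -0.37 to 0.32 under the first, the second and the last of these. *Prdx3* was 0.38 with array weights, 0.65 with the 2 pools left out, where it passed (adjusted p = 0.043), and -0.56 to 0.23 with 1 left out. *Slc3a2* was 0.15 with array weights and -0.21 to 0.25 with 1 left out. *Ftl1* was 0.22 with scaling to equal medians of the tested probes, 0.036 with array weights and -0.091 to 0.12 with 1 left out. *Gstm7* was -0.018 with scaling to equal medians of all probes, -0.0052 with no background correction and -0.23 to 0.26 with 1 left out. *Gstm1* probe 2, *Gstt1*, *Gstm7*, *Chac1*, *Gpx3* and *Msra* were near background in at least 1 genotype, which limits the size of their changes.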
